A study of Homo sapiens with 16 samples.

Results

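The comparison covered the H3K27ac peaks of A2780 cells expressing the hairpin shMBD3.26 against those of untransduced A2780 cells, on the autosomes. Any overlap of 1 bp or more put peaks into the same region, which joined 23270 peaks with shMBD3.26 and 27932 peaks of A2780 into 32860 regions. The 8 peak lists of the series held 175365 autosomal peaks in all. A2780 is a cisplatin-sensitive human epithelial ovarian cancer line of endometrioid type, and the study set it beside its resistant derivative A2780cis and beside the CAOV4 pair of lines. The question put to the hairpin was whether suppression of MBD3 changes the acetylation landscape of sensitive cells. For shMBD3.26, Tet-on competent A2780 cells were transduced with a doxycycline-inducible, GFP-marked vector, selected with G418, induced for 1 week and sorted for GFP. The reference was A2780 without vector, Tet-on system, selection, induction or sort. Any effect of those steps and an effect of the hairpin cannot be told apart here, and a control hairpin was not analysed here. MBD3 itself cannot be checked in peak lists, so the depth of the knockdown behind these values is not known from them. The study describes Western blots of MBD3 in sorted cells after 1 week of hairpin expression, and they were not analysed here.

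MBD3 is a subunit of the NuRD complex, which joins a nucleosome remodeller of the CHD family to the histone deacetylases HDAC1 and HDAC2. H3K27ac is the acetyl mark on lysine 27 of histone H3 found at active promoters and enhancers, and very broad or clustered domains of it mark genes tied to cell identity. NuRD removes acetyl groups from histones, and it is found at many active enhancers and promoters as well as at silent ones.

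The sequence that the study lists as the hairpin's guide is printed because it sets the target of the knockdown, and its place in the MBD3 transcript was not analysed here. It has 22 bases, 13 of them G or C, and capitals mark bases 2 to 8, which are the seed if the listed strand is the one loaded. Which strand of the transcript it matches was not checked.
shMBD3.26: aACAAGGTcaagagcgacccgc

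Each condition was 1 library, so no difference between them has a replicate check and no test was possible. Intervals in parentheses after a share are 95% Wilson intervals, and they cover counting error only. The lists give peak boundaries on a 200 bp grid and no height, so sequencing depth and signal strength are unknown, and a peak that is absent may lie just under the caller's threshold. Neighboring peaks of a list were at least 1000 bp apart. None of the lists held a peak on chromosomes 20 to 22 or at the far ends of chromosomes 1 to 12. Those parts, past the last peak of any list, could not be compared, and why the lists stop there was not tested. On chromosome 1 that last peak ends at 197193000, so counts and lengths per chromosome cover only the part that the lists reach.

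The shMBD3.26 list stood apart from the other 7 lists in a span on chromosome 6, which was chosen for this difference. Between 28.6 and 33.4 Mb (hg19), where the major histocompatibility complex with its antigen-presentation genes lies, it held 165 peaks covering 578.6 kb. A2780 held 19 peaks and 36.2 kb there, shMBD3.232 (a hairpin against the same gene) 56.4 kb, A2780cis 85.8 kb, CAOV4 9.2 kb and CAOV4cis 10.8 kb. The H3K9ac list of A2780, which maps another acetyl mark of active promoters, covered 5.4 kb of the span and that of A2780cis 9.2 kb. In the stretch of equal length before the span the covered length was 639.0 kb in A2780 and 581.0 kb with shMBD3.26, and in the stretch after it 555.2 and 436.8 kb. Of the regions touching the span, 148 were gained, 15 had 1 peak in each list, 2 were fused and 0 were lost. The cause of this difference between lists was not tested. The sources used here do not say whether reads in the span were mapped and filtered alike for all libraries, so the 148 regions are gained peaks in these lists and cannot be read as gained acetylation. Results that rest on the span are given with and without it.

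**Figure D1:**
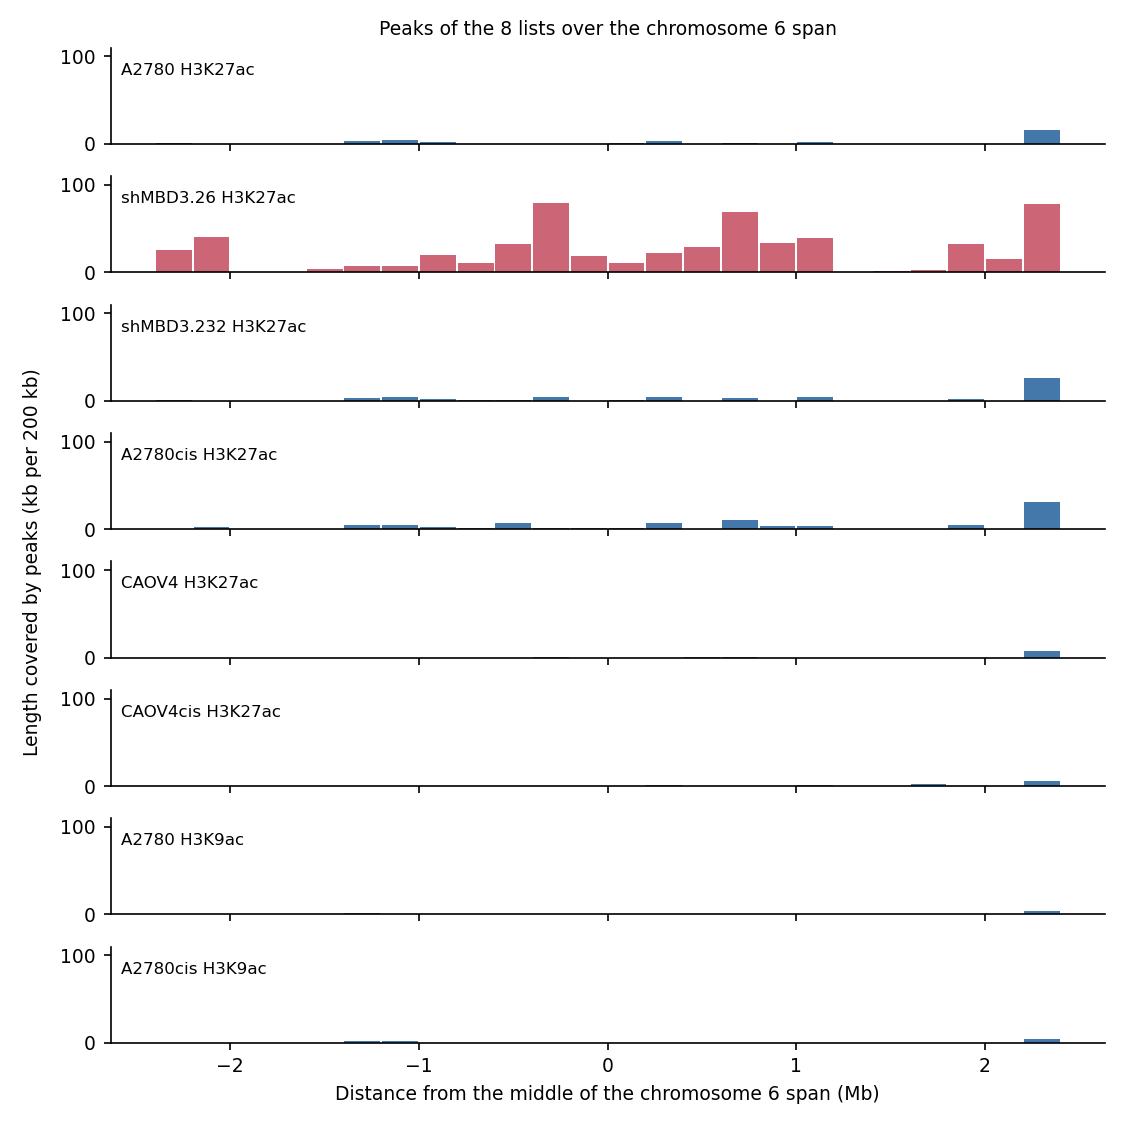
Length covered by peaks (y axis, kb per 200 kb) against distance from the middle of the chromosome 6 span (x axis, Mb), 1 panel for each of the 8 lists, bars giving 200 kb stretches. The shMBD3.26 list covered 578.6 kb of the span, and the other lists between 5.4 and 85.8 kb.

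With shMBD3.26, more H3K27ac peaks disappeared than appeared, and those that persisted were mostly narrower. Of all regions, 11287 (34.3%) were lost, that is, held only A2780 peaks, and 5912 (18.0%) were gained, holding only shMBD3.26 peaks. A further 13658 regions (41.6%; 41.0 to 42.1) held exactly 1 peak of each list and are called one-to-one pairs. In 1139 regions (3.47%) 1 A2780 peak was split over several shMBD3.26 peaks, and in 612 (1.86%) several A2780 peaks were fused into 1. The other 252 regions held several peaks of both lists. Lost peaks made up 40.4% (39.8 to 41.0) of the A2780 list, and gained peaks 25.4% (24.9 to 26.0) of the shMBD3.26 list. The lists differ in length. With the 23270 widest peaks of each, 7219 regions were lost and 6405 gained. That limit dropped peaks from A2780 only, and narrow ones, which were the ones most often lost. It therefore favors fewer losses and cannot say how much of their excess went with the longer A2780 list. Against the same A2780 list, A2780cis, which carries no hairpin, also lost more regions (12091, 38.4%) than it gained (5620, 17.8%). The A2780cis list is also shorter than that of A2780, at 20245 peaks, which by itself tends to put losses above gains. This comparison therefore cannot say whether the excess is particular to the hairpin. One-to-one pairs of A2780 and A2780cis went the other way in width, with 2023 narrowed and 3054 widened at 1.5-fold.

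Loss and gain fell mainly on narrow peaks. In A2780, 6358 of 8128 peaks up to 1 kb wide were lost (78.2%; 77.3 to 79.1), against 48.9% (47.6 to 50.2) of those over 1 to 2 kb and 22.4% (21.6 to 23.3) of those over 2 to 5 kb. Of the 3857 peaks over 5 to 10 kb, 172 were lost (4.46%; 3.85 to 5.16), and of the 1504 over 10 kb, 4 were. Among shMBD3.26 peaks, 4158 of 6925 up to 1 kb were gained (60.0%; 58.9 to 61.2), then 25.9%, 6.18% and 1.65% in the next classes, and 13 of 1062 over 10 kb. In each class up to 10 kb the lost share of A2780 exceeded the gained share of shMBD3.26, with intervals that did not meet. Over 10 kb the order turned, with 0.266% lost and 1.22% gained, and 10 of those 13 gained peaks lay in the chromosome 6 span, leaving 3 outside it. Single-step peaks of 200 bp made up 19.6% (18.9 to 20.4) of the lost peaks and 28.6% (27.4 to 29.7) of the gained ones.

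**Figure D2:**
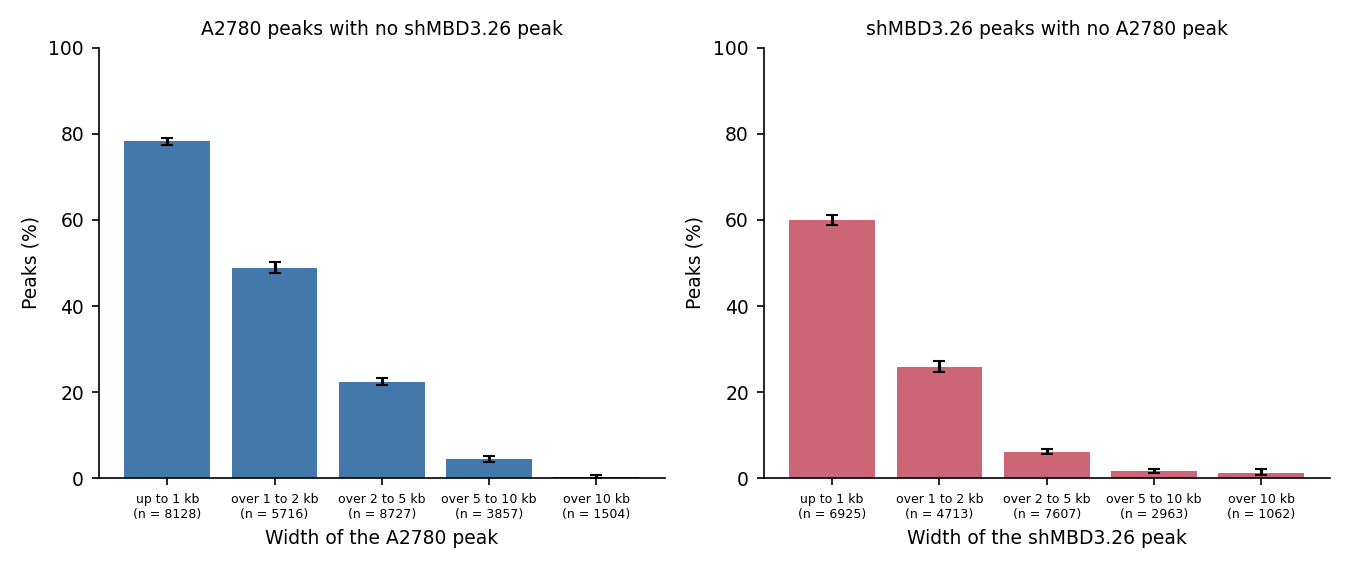
Share of A2780 peaks without a shMBD3.26 peak (left) and of shMBD3.26 peaks without an A2780 peak (right), in percent, by width of the peak. Error bars are 95% Wilson intervals for counting error, n is the number of peaks, and the share falls from 78.2% to 0.266% on the left and from 60.0% to 1.22% on the right.

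The median distance from a lost peak to the nearest shMBD3.26 peak was 7000 bp. Some 9.04% of them (8.52 to 9.58) lay within 1000 bp of one, just outside the merging rule, and 41.5% (40.6 to 42.4) within 5000 bp. For gained peaks the median distance to an A2780 peak was 7600 bp, with 707 of 5912 within 1000 bp and 41.0% within 5000 bp. Lost regions had no other kind of region between them in 150 runs of 5 or more, which held 7.73% (7.25 to 8.23) of them. The longest such run was of 13 regions, at chr6:44634001-45306000, in which A2780 covered 39.6 kb with a widest peak of 9800 bp. No peak of shMBD3.26, shMBD3.232 or A2780cis lay in that stretch. The next runs held 10 regions each. At chr15:38372401-38502000 A2780 covered 38.8 kb and those other lists 0, and at chr13:69272001-69547800 it covered 31.8 kb against 1.4 kb with shMBD3.232. At chr12:687401-832000 it covered 11.6 kb against 2.2 kb with shMBD3.232, while CAOV4 covered 38.4 kb. Gained regions ran together for 45, 31 and 18 in the chromosome 6 span. Outside it the longest run was 11 regions, at chr10:60335201-60531200, with 25.4 kb of shMBD3.26 peaks, 0 in A2780 and 0 with shMBD3.232.

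A2780 peaks covered 96.7 Mb and shMBD3.26 peaks 76.5 Mb, a ratio of 0.792. The lists shared 62.2 Mb, which was 64.3% of the A2780 length and 81.3% of the shMBD3.26 length. Of the 34.5 Mb covered in A2780 alone, 14.5 Mb lay in lost peaks (42.0%), 14.1 Mb in one-to-one pairs whose boundaries moved (40.8%) and 4.24 Mb in split peaks (12.3%). Of the 14.3 Mb covered with shMBD3.26 alone, 6.19 Mb lay in one-to-one pairs (43.2%), 5.58 Mb in gained peaks (39.0%) and 1.45 Mb in fused ones (10.1%). Moved boundaries carried about as much of the change as whole peaks did. Counted net, one-to-one pairs fell by 7.87 Mb and split peaks fell by 3.68 Mb, while fused peaks rose by 0.676 Mb. With equal numbers of peaks from each list the ratio of covered length was 0.804, and without the chromosome 6 span it was 0.786.

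Peaks that kept a single partner were narrower with shMBD3.26. Their median width was 3200 bp in A2780 and 2600 bp with the hairpin, and the median ratio of widths was 0.882, with quartiles at 0.647 and 1.12. The shMBD3.26 peak was narrower in 8185 of 13658 pairs (59.9%; 59.1 to 60.7), wider in 31.9% and equal in 8.16%. At a 1.5-fold limit 3829 pairs (28.0%) were narrowed and 1462 (10.7%) widened. Narrowed peaks went from a median of 3400 to 1600 bp and lost 8.43 Mb in all, and widened ones went from 1200 to 2600 bp and added 2.32 Mb. When each list was limited to its 23270 widest peaks, 3769 pairs were narrowed and 1188 widened. That limit dropped peaks from A2780 only, where the narrowest kept was 600 bp wide, against 200 bp with shMBD3.26. Pairs with an A2780 peak up to 1 kb were more often widened (682) than narrowed (271). The limit therefore favors narrowing and cannot check the direction.

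**Figure D3:**
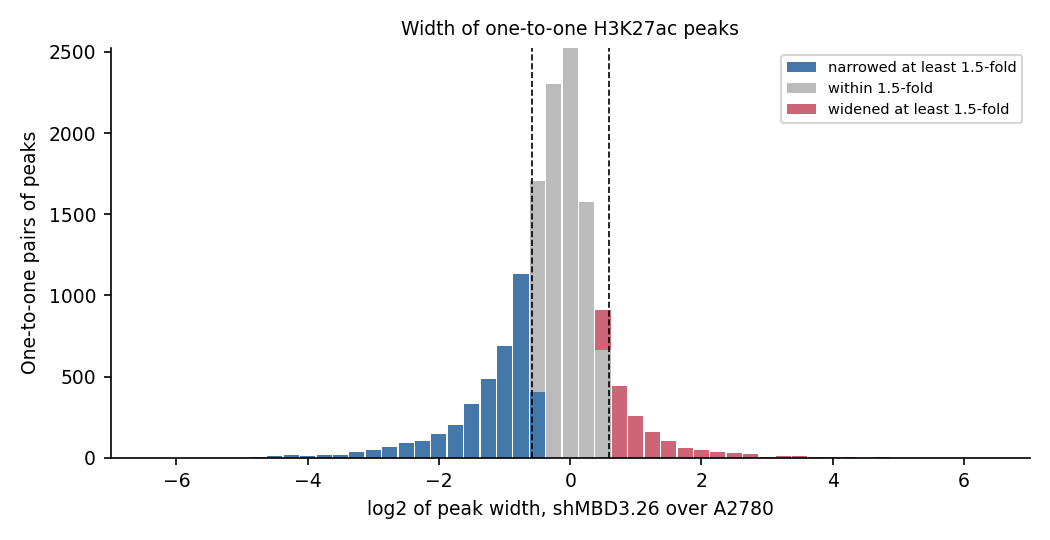
Number of one-to-one pairs (y axis) by the log2 ratio of peak width, shMBD3.26 over A2780 (x axis). Dashed lines mark 1.5-fold, with 3829 narrowed pairs to the left, 1462 widened pairs to the right and 8367 between them.

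How narrowing depends on width was read with each pair classed by the geometric mean of its 2 widths, since classing by either list alone tilts the ratio. On that scale the median ratio was 0.800 up to 1 kb, 0.857 over 1 to 2 kb, 0.889 over 2 to 5 kb, 0.872 over 5 to 10 kb and 0.957 over 10 kb. Narrowed pairs outnumbered widened ones in every class, 666 to 380 in the narrowest, 1616 to 518 at over 2 to 5 kb and 44 to 3 in the broadest. Classed by A2780 width alone, pairs up to 1 kb had a median ratio of 1.33, on the other side of 1, which shows the size of that tilt. Both boundaries moved inwards alike, by a median of 200 bp at the start and at the end. The shMBD3.26 peak lay inside the A2780 peak in 43.2% of pairs (42.3 to 44.0), the reverse held in 21.3%, and in 32.6% the peaks were staggered. Of narrowed peaks, 42.2% drew in by at least 400 bp on both sides and 45.9% on 1 side only.

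Across the 5361 A2780 peaks over 5 kb, shMBD3.26 covered the middle far more often than the edges. Coverage was 48.1% in the first twentieth of the peak, 86.3% just past its middle and 46.7% in the last. For shMBD3.232 these slices had 53.6%, 86.8% and 53.7%, and for H3K9ac of A2780 30.5%, 65.0% and 29.5%. A2780cis, without a hairpin, had 48.1%, 72.2% and 47.9%. The peaks and their edges were set by the A2780 list, so lower coverage of the edges by another list is partly built in. The trimmed edges of narrowed peaks, 8.71 Mb in all, were covered by A2780 H3K9ac peaks over 19.5% of their length, and the cores that remained, 7.15 Mb, over 55.1%. H3K9ac of A2780 was not used to choose these stretches, but it comes from the same cells, and it covered the middle of broad A2780 peaks more than their edges in general.

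**Figure D4:**
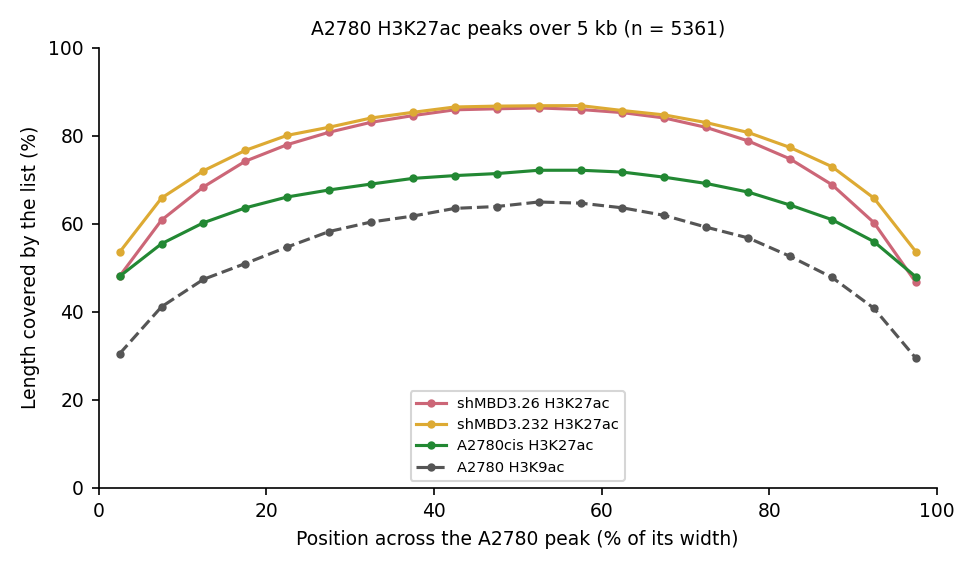
Length covered by peaks of 4 lists (y axis, percent) by position across the 5361 A2780 H3K27ac peaks over 5 kb (x axis, percent of peak width, 20 slices). With shMBD3.26 coverage was 48.1% in the first slice, 86.3% just past the middle and 46.7% in the last.

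Splitting was the main change seen in the broadest peaks. Of the A2780 peaks over 10 kb, 574 of 1504 (38.2%; 35.7 to 40.6) were split, against 11.3% (10.3 to 12.3) of those over 5 to 10 kb and 1.46% of those over 2 to 5 kb. A split needs a gap of at least 1000 bp, so peaks up to 1 kb could not split. Room for a split grows with width, so part of this trend is built in. Of shMBD3.26 peaks over 10 kb, 214 of 1062 (20.2%; 17.8 to 22.7) were fusions. The split peaks had a median width of 10200 bp, and 974 of 1139 (85.5%) fell into 2 pieces, 131 into 3 and 34 into 4 or more. The 1359 gaps had a median of 1400 bp, 58.4% of them were no longer than that, and none was under the 1000 bp below which the lists hold no gap. The pieces kept a median of 68.7% of the width, the widest of them 50%. Gap sequence was covered by A2780 H3K9ac over 29.1% of its length, and the pieces beside it over 63.1%. Peaks of shMBD3.232 covered 56.8% of the gap sequence and 84.7% of the pieces, and those of A2780cis 57.3% and 71.0%. Most gap sequence thus lay under a peak in each of those lists. Splits outnumbered fusions by 1.86 to 1, and did so on 17 of 19 chromosomes. The order depends on the merging rule: 1109 splits and 1180 fusions were found with peaks up to 1 kb apart merged, and 938 and 1889 with peaks up to 5 kb apart merged.

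The peak divided most was chr17:46613201-46682800, 69.6 kb wide in A2780, which fell into 8 pieces of 2000 to 20600 bp with shMBD3.26. Those pieces covered 54.8 kb, and the widest gap, 4200 bp, lay before the last of them. A peak at chr19:36759601-36798400 also fell into 8 pieces, with 38.8 kb reduced to 26.6 kb. The peak at chr4:4482001-4547600 fell into 6, with 65.6 kb reduced to 56.2 kb. With shMBD3.232 these regions were covered over 60.2, 29.2 and 65.0 kb, each time between the A2780 and shMBD3.26 lengths. The peak that joined most A2780 peaks was chr12:90309601-90392200, 82.6 kb wide and covered whole in shMBD3.232 cells, where A2780 had 7 peaks covering 72 kb. Peaks at chr9:12675401-12724600 and chr11:36891601-36914400 each joined 6 A2780 peaks, raising the covered length from 33.4 to 49.2 kb and from 13 to 22.8 kb. Both were covered to the same lengths, 49.2 and 22.8 kb, with shMBD3.232.

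The widest peaks to disappear were chr3:154685601-154699400 and chr9:97832201-97846000, each 13.8 kb in A2780. The first was absent with shMBD3.232 and in A2780cis, whereas 7.0 kb of the second was covered with shMBD3.232 and all 13.8 kb in A2780cis. Next came chr7:81495401-81507400 (12 kb), chr19:11026201-11036400 (10.2 kb) and chr12:89452201-89462200 (10 kb), none of which held a peak with shMBD3.232. The largest loss of width in a one-to-one pair was at chr5:88107001-88133400, where 26.4 kb in A2780 shrank to 0.4 kb. A neighborhood on chromosome 3 gave the next 3 losses. There, chr3:106045001-106070400 went from 25.4 to 3.2 kb, chr3:106109601-106127800 from 18.2 to 1.2 kb and chr3:106087001-106108200 from 21.2 to 5.4 kb. All 3 had no peak with shMBD3.232, and A2780cis covered 25.4, 13.4 and 21.2 kb of them. The last of the 5, chr5:71058801-71075400, went from 16.6 to 1.8 kb.

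Of the 5 widest gained peaks, 4 lay in the chromosome 6 span, the widest being chr6:32143001-32166000 at 23 kb and chr6:31788801-31808000 at 19.2 kb. The others there were chr6:30645801-30660600 (14.8 kb) and chr6:33163401-33177800 (14.4 kb). With shMBD3.232 these 4 regions were covered over 0.8, 1.0, 0.0 and 0.0 kb. The fifth, chr2:178557001-178572400, was 15.4 kb wide, was covered whole in shMBD3.232 cells and was empty in A2780cis and CAOV4. The 4 next widest gained peaks outside the span, named after their values were seen, measured 11.4 kb at chr2:178005401-178016800, 10.4 kb at chr4:90431201-90441600, 10 kb at chr5:50877601-50887600 and 9.8 kb at chr8:109412001-109421800. In shMBD3.232 cells peaks covered 10.4, 10, 8.4 and 9.8 kb of them. Gained regions as a whole differed from these wide ones: shMBD3.232 peaks touched 948 of the 5764 regions gained outside the span (16.4%; 15.5 to 17.4). The largest widening was at chr2:50076601-50092400, where 0.2 kb in A2780 became 15.8 kb, with 5.0 kb covered in shMBD3.232 cells. At chr2:177979201-177990200 0.4 kb became 11 kb, at chr4:111535001-111545600 0.4 kb became 10.6 kb, at chr3:29420601-29431800 1.2 kb became 11.2 kb and at chr2:177900201-177910800 1.0 kb became 10.6 kb. All 5 widened regions were empty in A2780cis, CAOV4 and both H3K9ac lists. Because both hairpins were set against the same A2780 list, a low A2780 value raises both comparisons together.

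Losses outnumbered gains on each of the 19 chromosomes, and the covered length was lower on each. The lost share of A2780 peaks ranged from 34.9% on chromosome 6 to 45.8% on chromosome 18 (41.6 to 49.9), with a median of 40.0%. Given the widths of each chromosome's peaks, the share found for loss differed from the share computed from the width classes by between -5.41 and 4.71 percentage points. Chromosome 6 was lowest against this measure, with 34.9% (32.2 to 37.7) lost where widths gave 40.3%, and chromosome 18 highest, with 45.8% where they gave 41.0%. For gained peaks chromosome 6 was again the extreme, with 34.4% (31.7 to 37.2) found and 25.2% given by widths. Without the span its lost share was 35.5% (32.8 to 38.3) against 40.1%, its gained share was 25.3% (22.7 to 28.1) against 25.7%, and its ratio of covered length went from 0.996 to 0.859. At the other end chromosome 19 had 17.1% (15.5 to 18.8) of its peaks gained where widths gave 23.1%, 2.62 lost for each gained, and a ratio of covered length of 0.721. On chromosomes 1, 16 and 17 the ratio of covered length was also low, at 0.737, 0.745 and 0.727. Narrowed pairs were most frequent on chromosomes 19 (33.7%; 31.1 to 36.4) and 17 (33.2%; 30.4 to 36.0) and least on chromosomes 6 (22.4%; 19.3 to 25.7) and 13 (22.6%; 18.4 to 27.6), with 22.9% on chromosome 6 without the span.

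**Figure D5:**
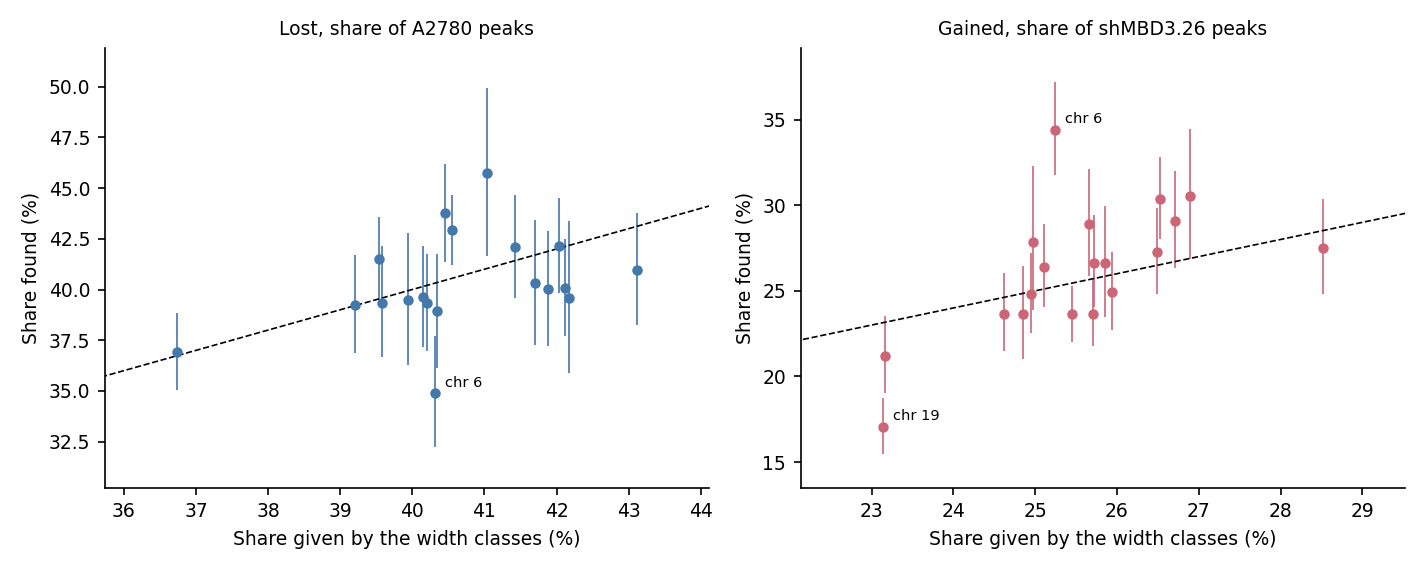
Share of A2780 peaks lost (left) and of shMBD3.26 peaks gained (right) on each of the 19 chromosomes (y axis, percent, 95% Wilson intervals) against the share that the width classes of its peaks give (x axis, percent). The dashed line marks equality, and chromosome 6 lies furthest from it, at 34.9% against 40.3% on the left and 34.4% against 25.2% on the right.

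Across 1 Mb stretches falls were common and rises few. Of 1076 stretches with at least 20 kb of peaks in either list, outside the chromosome 6 span, 954 (88.7%) had less covered length with shMBD3.26, and the median ratio was 0.780. At 1.5-fold, 221 (20.5%) were lower and 21 (1.95%) higher. These limits are set around a ratio of 1 and not around the median, so a fall passes more easily than a rise. The shMBD3.232 list also covered more than A2780 in 13 of the 21 higher stretches. The stretches named here were chosen after their values were seen. Among those with at least 50 kb in A2780, the lowest ratio was at chr5:88000001-89000000, with 54.0 kb in A2780 and 0.6 kb with shMBD3.26. At chr4:27000001-28000000 A2780 covered 111.2 kb, shMBD3.26 22.6 kb and shMBD3.232 0.0 kb. At chr3:106000001-107000000 these lists covered 89.8, 15.8 and 0.0 kb, while A2780cis covered 225.8 kb. The largest rise in kb was at chr2:50000001-51000000, from 355.0 to 433.6 kb, with 475.2 kb for shMBD3.232 and 3.2 kb in A2780cis. At chr8:109000001-110000000 the covered length rose from 79.0 to 142.0 kb, and at chr4:112000001-113000000 from 53.0 to 113.8 kb. In shMBD3.232 cells these stretches had 166.6 and 112.0 kb.

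Lost and gained regions carried peaks of the lists outside the comparison less often than one-to-one regions did, in shares that grew with peak width for lost regions up to 10 kb. One-to-one regions were defined by a peak in both lists, and lost or gained ones by a peak in only 1. Part of this difference is therefore built in. H3K9ac peaks of A2780 touched 66.2% of one-to-one regions (65.4 to 66.9), 14.8% (14.2 to 15.5) of lost ones and 7.61% (6.96 to 8.32) of gained ones, and 87.7% of split ones. The lost share was lower in each width class up to 10 kb, whereas over 10 kb all 4 lost regions had H3K9ac, against 95.5% of one-to-one regions. Among regions with an A2780 peak over 2 to 5 kb, 27.6% (25.7 to 29.6) of the lost and 71.6% (70.4 to 72.7) of the one-to-one regions had H3K9ac, and at over 5 to 10 kb these were 32.0% (25.5 to 39.3) and 89.5% (88.4 to 90.6). For shMBD3.26 peaks over 2 to 5 kb, 55 of the 424 regions gained outside the span and 76.8% (75.7 to 77.8) of one-to-one regions had it. Among one-to-one pairs, H3K9ac was present at 74.0% of those within 1.5-fold, 57.7% (56.2 to 59.3) of narrowed and 43.2% (40.7 to 45.8) of widened ones. These shares were not divided by width. H3K9ac was present at 23.9% of pairs with an A2780 peak up to 1 kb and 95.5% over 10 kb. The median A2780 width was 3400 bp in narrowed and 1200 bp in widened pairs. The H3K27ac peaks of CAOV4, an unrelated ovarian cancer line, touched 55.1% of one-to-one, 13.8% of lost and 11.9% of gained regions, and those of A2780cis 80.2%, 24.5% and 20.5%. At lost A2780 peaks over 5 to 10 kb the A2780cis share was 39.0% (32.0 to 46.4).

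The hairpin shMBD3.232 was compared with the same A2780 list, so the values of each hairpin are set side by side. For shMBD3.26 and shMBD3.232 the numbers of lost regions were 11287 and 11978, of gained regions 5912 and 3240, of splits 1139 and 781 and of fusions 612 and 931. Peaks of shMBD3.232 touched 83.3% of the one-to-one regions of shMBD3.26 and A2780, 17.3% of the lost and 16.2% of the gained ones, values that the shared A2780 list ties together. Wider regions had larger shares, with 42.4% (35.3 to 49.9) at lost peaks over 5 to 10 kb and 23 of 28 at gained peaks of that width outside the span. The median ratio of widths was 0.882 and 0.917, and the ratio of covered length 0.792 and 0.816. Under the 1 bp rule, splits exceeded fusions with shMBD3.26 and not with shMBD3.232. That order for shMBD3.26 turned with peaks up to 1 kb apart merged, to 1109 splits and 1180 fusions. Chromosome by chromosome the ratio of covered length ran from 0.721 to 0.996 for shMBD3.26 and from 0.760 to 0.895 for shMBD3.232. Without the span, which sets the 0.996, the highest value for shMBD3.26 was 0.888, on chromosome 13.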

How the data were processed

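ChIP-seq for H3K27ac (antibody ab4729) was done on MNase-digested chromatin with a Drosophila spike-in. Per the labels the authors mapped reads with Bowtie2 to GRCh37 (hg19) and called peaks with MACS2; versions are not given in the sources used here, and the study's methods add quantile normalization. The deposited lists give chromosome, start and end, and a score column holding 0 throughout, which was left out. Each library is its own list, and no counts were available here, so depth is unknown. Starts were converted to 1-based positions. Overlaps, widths and Wilson intervals were computed with Python 3.11.15, pandas 2.3.3, numpy 2.4.6 and SciPy 1.17.1, after the classing had been tested on simulated lists. The members and lists were chosen with earlier results of these data known. Regions named are the 5 widest gained and lost, the 5 largest losses and rises of width, the 3 peaks most divided, the 3 joining most peaks and the longest runs; others are marked. The chromosome 6 span runs from the first to the last of 16 stretches of 200 kb, no more than 1 Mb apart, with at least 10 kb in the shMBD3.26 list and over 2 times any other list, and 8 stretches between them do not pass. No annotation of the lists' build was used, so peaks were not assigned to genes, the gene lists planned for such an assignment were not analysed here, and the histocompatibility complex is named from general knowledge of its place.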

Additional observations from a re-analysis of the deposited data

How the results depend on the processing

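Each count was recomputed under each alternative. No paired analysis was possible because every group has 1 sample and the labels carry no replicate numbers, and leaving out a replicate would leave a list with nothing to compare. With peaks up to 5 kb apart merged, 3179 regions were gained, 5213 lost, 1867 pairs narrowed, 940 widened and 1889 peaks fused, and with peaks up to 1 kb apart merged 1180 were fused, which put fusions above splits. With the same number of widest peaks 7219 were lost. Counting peaks over 2 kb looked up in the full list, 532 were gained, 2135 lost and 900 widened. At 2-fold 2065 pairs were narrowed and 714 widened, and at 400 bp or more 7088 and 3437. All other counts were within 1.5 times the reported ones. The ratio of covered length was 0.804 with equal numbers of peaks, 0.795 with X added, 0.785 for peaks over 2 kb and 0.786 without the chromosome 6 span, an alternative added after seeing the data. More regions were lost than gained, and more pairs narrowed than widened, under each of these settings. The setting with the same number of widest peaks favors narrowing, as given above. With 1 library per condition, and no depth, differences of threshold between libraries cannot be told apart from differences of acetylation.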

Other observations

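Stretches of 200 kb in which 1 list covers at least 10 kb and over 2 times any other list occurred in every list. There were 24 in the shMBD3.26 list, 56 in A2780, 7 in shMBD3.232, 102 in A2780cis, 83 in CAOV4 and 96 in CAOV4cis, of 12056 stretches. The chromosome 6 span was set by 16 of the 24 in the shMBD3.26 list. As a description of a span so chosen, it held 31 of the 62 gained peaks over 5 kb and 8.76% of the length of all gained peaks.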
